A study of Mus musculus with 6 samples.

Results

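The cells described here are CD8 T cells from mouse brain tumors that carried RNA of the exhaustion receptors Pdcd1 and Havcr2 and no RNA of the granzymes Gzmc and Gzmf. Members were chosen by their RNA counts: RNA of Cd8a or of Cd8b1, no Cd4, 1 or more of Pdcd1 and of Havcr2, and none of Tcf7, Gzmc, Gzmf and Mki67. C1qa, Lyz2 and Csf1r together had at most 3 UMIs, the barcode at least 5000 gene UMIs and at most 10% mitochondrial UMIs, and it was listed in a T cell receptor (TCR) contig table. Each UMI (unique molecular identifier) stands for 1 captured RNA molecule. Of 4632 such barcodes at day 13, 2959 were CD8 T cells and 124 were members. Of 3215 at day 19, 1800 were CD8 T cells and 114 were members. The main comparison cells were CD8 cells under the same limits with Pdcd1 and without Havcr2, 639 at day 13 and 253 at day 19. No condition on Tcf7, Gzmc or Gzmf was placed on them.

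All animals were wild-type C57BL/6J mice of 6 to 8 weeks that carried an intracranial tumor of the CT2A glioma line. At day 13, 16 mice were used, with 4 animals pooled for a replicate, and at day 19 there were 4 mice. Sorted CD3-positive cells, positive for CD4 or for CD8, went through 10x Genomics 5' chemistry, and each day gave libraries for gene expression, antibody tags and TCR. Each day thus had 1 capture, and its TCR contigs came in 4 tables, called sets 1 to 4 below, which the labels do not tie to an animal or a pool. The sets followed the multiplexing tags, a different one in each: of a set's barcodes with any tag UMI, 98.9 to 100% at day 13 and 87.5 to 92.1% at day 19 had that tag on top, but the labels do not say what a tag marked. Day, capture and staining cannot be told apart. Sets of a day shared 1 capture and, as given below, clones, so they were not used as replicates. Values carry 95% intervals for counting error only, and no test between the days or cell groups was made.

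Exhaustion is the state that CD8 T cells enter when their antigen persists, as in tumors and chronic infection. Progenitor exhausted cells hold the transcription factor TCF-1, made from Tcf7, and renew the pool, whereas terminally exhausted cells lose it and carry several inhibitory receptors, among them TIM-3, the product of Havcr2. Terminally exhausted cells still make granzymes, perforin and chemokines, and in mice some of them turn on additional granzymes, such as granzymes C and F, that lie in a gene cluster with granzyme B.

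Because the members were selected on these RNA counts, the genes of the rule are only described. The members had a median of 6 Pdcd1 UMIs at day 13 and 5 at day 19. Their Havcr2 counts were low, with 63 of 124 members at day 13 and 53 of 114 at day 19 holding exactly 1 UMI of it. Just outside the rule, 9 cells at day 13 and 1 cell at day 19 missed it by a single Tcf7 UMI, and 6 and 16 cells missed it by a single UMI of Gzmc or Gzmf. Counted at any number of UMIs, 22 and 5 cells failed only through Tcf7, 9 and 119 only through Gzmc or Gzmf, and 58 and 48 only through Mki67, the marker of cycling cells. Among cells that failed only through the macrophage genes, 30 and 38 in number, the median summed count was 75.5 and 31 UMIs, far from the limit of 3.

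Members made up 15.6% of the 796 Pdcd1-positive, Mki67-negative CD8 cells at day 13 (95% exact binomial interval 13.1 to 18.3) and 23.2% of 492 at day 19 (19.5 to 27.2). In sets 1 to 4 the share was 20.3, 15, 14.6 and 16.5% at day 13 and 19.4, 24.6, 26.7 and 13.8% at day 19. The sets of the 2 days overlapped, with sets 1 and 4 of day 19 inside or below the day 13 range. Set 2 held the largest number of members on each day, 54 and 74, whereas sets 1 and 4 of day 19 had only 7 and 9, so their values rest on few cells. Depth differed between the groups: members had a median of 8912.5 and 9680 gene UMIs, and the Havcr2-negative cells 7313 and 8193. After each cell was thinned to 5000 UMIs the shares were 12.8 and 18.2%.

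The label of terminal exhaustion could be checked on Lag3, Entpd1 and Tox, which the rule did not use, and all of them were higher in members than in Havcr2-negative cells in 8 of 8 sets. As every gene came from the same sorted barcodes as the rule, these values are a description. Of the 4372 genes with at least 100 UMIs in both groups together on each day, 3.75% were higher in 8 of 8 sets. Values are CPM, a gene's UMIs summed over the cells of a group and scaled to a fixed total of all gene UMIs.

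Lag3 encodes an inhibitory receptor that binds MHC class II. Its level in members was 758, 525, 502 and 538 CPM in sets 1 to 4 at day 13 and 435, 656, 865 and 519 CPM at day 19. In Havcr2-negative cells it was 221, 277, 223 and 209 CPM at day 13 and 132, 362, 283 and 275 CPM at day 19. The lowest member set was above the highest comparison set on each day. The log2 ratio was 1.16 (1.02 to 1.29) at day 13 and 1.12 (0.97 to 1.26) at day 19, and 1.12 and 0.63 with every cell thinned to 5000 UMIs.

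Entpd1 encodes CD39, the surface enzyme that begins the breakdown of extracellular ATP. Members had 89.5, 134, 103 and 109 CPM at day 13 and 48.3, 130, 186 and 128 CPM at day 19. The Havcr2-negative cells had 35.7 to 47.9 CPM at day 13, below every member set, and 26.4 to 75.8 CPM at day 19, which overlapped member set 1. Its log2 ratio was 1.38 (1.07 to 1.68) and 1.09 (0.76 to 1.42), and 1.60 and 0.50 after thinning, so that at day 19 neither marker stayed at 2-fold.

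Tox encodes the transcription factor that establishes the exhausted state. Members had 186, 100.3, 112 and 109 CPM at day 13 and 193, 133, 238 and 200.3 CPM at day 19, above the comparison ranges of 65.1 to 86.8 and 37.0 to 108 CPM. The log2 ratio, 0.50 (0.22 to 0.78) at day 13 and 0.95 (0.66 to 1.24) at day 19, stayed under 2-fold.

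**Figure D1:**
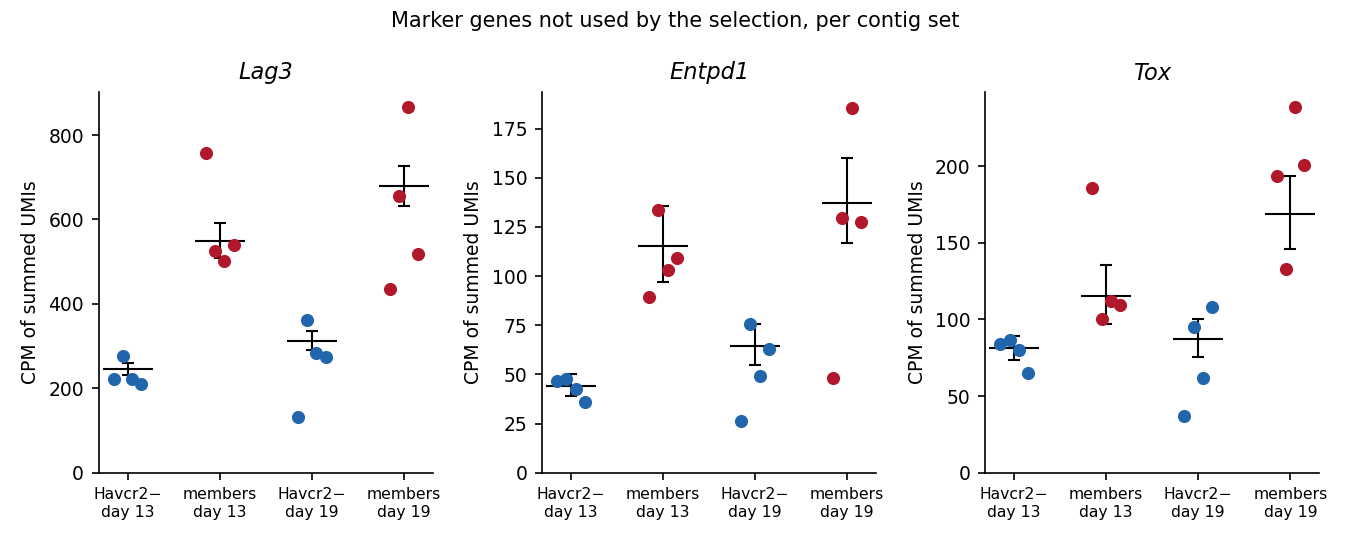
Each point is 1 contig set and gives the CPM of summed UMIs of a marker that the selection did not use, for members and for Pdcd1-positive Havcr2-negative CD8 cells at day 13 and day 19. For Lag3 the lowest member set, 435 CPM, lies above the highest comparison set, 362 CPM.

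Single members differed from one another in these markers. With every cell thinned to 5000 UMIs, Lag3 was seen in 76.6% of members at day 13 and 89.5% at day 19, Entpd1 in 39.5 and 50%, and Tox in 37.9 and 50.9%. Before thinning, the shares were 87.9 and 98.2% for Lag3, 55.6 and 71.1% for Entpd1, and 53.2 and 68.4% for Tox. In Havcr2-negative cells the thinned shares were 48.2 and 58.1% for Lag3, 16.7 and 24.1% for Entpd1, and 28.6 and 29.2% for Tox. In Pdcd1-negative CD8 cells, which had median depths of 6604 and 7210 UMIs, Lag3 was seen in 12.8 and 8.84%, Entpd1 in 4.33 and 3.6% and Tox in 14.1 and 11.6%, all below the members.

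Thinned in this way, 10.5% of members at day 13 (5.7 to 17.3) and 3.5% at day 19 (1.0 to 8.7) showed none of Lag3, Entpd1 and Tox, against 35.7 and 29.6% of Havcr2-negative cells. All 3 markers were seen in 10.5% of members at day 13 (5.7 to 17.3) and 23.7% at day 19 (16.2 to 32.6). As a group, members thus showed these markers more often than Havcr2-negative cells, while most single members at this depth did not show all 3.

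Before the other genes, the RNA of other cell types was summed. The dendritic and antigen-presentation list, whose defining genes are MHC class II genes and Cd74, stood most above the Havcr2-negative cells. Its 12 genes, all detected at day 13, summed to 5651 CPM in members (sets 2669 to 9271) and 2900.5 CPM in Havcr2-negative cells (233 to 3772). At day 19 the sums were 1740 CPM (515 to 12360) and 964 CPM (370 to 2605), and Xcr1 was at 0 in both. Most of it lay in few barcodes: 11 of 124 members at day 13 and 4 of 114 at day 19 had more than 3 UMIs of H2-Aa, H2-Ab1 and H2-Eb1. These barcodes held 89.1% of the members' UMIs of the 12 genes at day 13 and 73.4% at day 19. The 11 of day 13 had a median of 12978 gene UMIs. The first count of 2-fold genes in each RNA comparison below is also given without those cells, an alternative added once the data had been seen.

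Some lists of low level were lower in members. The 6 B and plasma cell genes summed to 8.74 and 8.42 CPM in members, from 11 and 10 UMIs, against 23.7 and 32.5 CPM in Havcr2-negative cells. The gamma-delta T cell genes summed to 1.59 and 10.1 CPM against 5.98 and 12.8 CPM. The 12 macrophage and microglia genes summed to 123 and 151 CPM in members against 139 and 143 CPM in Havcr2-negative cells. The 8 neutrophil and monocyte genes summed to 3931 CPM in members and 3795 CPM in Havcr2-negative cells at day 13, and to 2197 CPM (sets 1196 to 2286) and 2989 CPM (2040 to 4992) at day 19. Nearly all of this was Ly6c2 and Plac8, which T cells also express, and the neutrophil genes S100a8, S100a9 and Retnlg were at 0, as were the 4 hemoglobin genes. No member barcode occurred on both days, although 62 barcodes of at least 5000 UMIs did.

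Against Havcr2-negative cells, members held more RNA for perforin, the chemokines Ccl3 and Ccl4 and the receptor Tnfrsf9, and less for genes of progenitor and resting T cells. On both days, 16 of 4372 genes (0.366%) were at least 2-fold higher in members and 31 (0.709%) at least 2-fold lower. Havcr2 is among the 16 and Tcf7 among the 31, both set by the rule. The counts were 6 and 15 without set 3 of day 19, 28 and 16 without set 2 of day 19, and 5 and 13 after thinning. Without set 4 of day 19, 18 were lower. Among single days, 91 genes (1.44%) were higher and 152 (2.4%) lower at day 13, and 34 (0.773%) were higher and 75 (1.7%) lower at day 19. Without the MHC class II cells the counts on both days were 13 higher and 32 lower. The counts were smaller against the 275 and 120 Havcr2-negative cells that also lacked Tcf7, Gzmc and Gzmf, a comparison added once the data had been seen: 3 genes were 2-fold higher on both days and 9 lower. The markers were then under 2-fold. Their log2 ratios were 0.74 and 0.70 for Lag3, 0.58 and 0.62 for Entpd1, and 0.29 and 0.42 for Tox. The UMI minimum was applied anew in these alternatives, and the number of genes that passed it is not given. Fewer cells or UMIs leave fewer genes to pass, so smaller counts of 2-fold genes need not mean smaller ratios. Of the named genes at 2-fold or more, 18 of 29 at day 13 and 8 of 26 at day 19 kept it under every alternative tried. The 8 include Myb, which had too few UMIs at day 19 for a ratio against the stricter cells.

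Among effector genes, Prf1, which encodes the pore-forming protein perforin, ranked highest after Havcr2 itself. Members had 310.0, 183, 178 and 152 CPM in sets 1 to 4 at day 13 and 338, 162, 792 and 228 CPM at day 19, whereas Havcr2-negative cells had 31.2 to 58.7 and 26.4 to 125 CPM. Member and comparison sets did not overlap on either day. The log2 ratio was 1.99 (1.73 to 2.25) and 1.67 (1.44 to 1.91), and against the cells that also lacked Tcf7, Gzmc and Gzmf it was 1.57 and 1.24. The day 19 value was 0.70 without set 3, where Prf1 was highest, and 2.86 without set 2.

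Nkg7, which encodes a protein of cytotoxic granules, was higher in 8 of 8 sets at log2 ratios of 0.59 and 0.58. Gzmb and Gzma, the major granzymes of cytotoxic T cells, did not follow a common direction over the sets. Gzmb was higher in members in 3 of 8 sets, and its log2 ratio was 0.49 (0.44 to 0.54) at day 13 and 0.06 (-0.02 to 0.14) at day 19. Gzma was higher in 4 of 8 sets and ranged in the day 19 members from 0 in set 3 to 1464 CPM in set 2. Of the effector list, 11 genes were measured at day 13 and 13 at day 19, and their median log2 ratios were 0.37 and 0.06 against 0.04 and 0.01 over all genes. At day 13, 1 was 2-fold higher and 0 were 2-fold lower, against 1.44 and 2.4% of all genes. At day 19, 2 were 2-fold higher and 3 were 2-fold lower, against 0.773 and 1.7% of all genes.

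Ccl4 and Ccl3 encode inflammatory chemokines. Ccl4 stood at 3237, 2986, 1663 and 788 CPM in day 13 members and at 834, 1464, 2196 and 956 CPM in day 19 members, against 372 to 501 and 448 to 760 CPM in Havcr2-negative cells. All member sets were above all comparison sets of their day, and set 4 at day 13 and set 1 at day 19 were the lowest of the members. The log2 ratio of Ccl4 was 2.28 (2.20 to 2.36) at day 13 and 1.19 (1.09 to 1.28) at day 19. Ccl3 had log2 ratios of 2.46 and 1.22 and was higher in 7 of 8 sets. Against the cells that also lacked Tcf7, Gzmc and Gzmf, Ccl4 had 1.75 and 0.40 and Ccl3 1.73 and 0.38, so neither was 2-fold higher at day 19. Without set 3 of day 19 their day 19 values were 0.88 and 0.40. Ifng, the gene of interferon gamma, was higher in 8 of 8 sets with log2 ratios of 0.94 (0.80 to 1.08) and 1.02 (0.85 to 1.18), and against those stricter cells it had 0.79 and 0.43.

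Tnfrsf9 and Rgs16 were also among the 10 highest genes. Tnfrsf9 encodes 4-1BB, a costimulatory receptor induced on activation, and had 413, 299, 241 and 944 CPM in members at day 13 and 519.6, 443, 953 and 337 CPM at day 19. Its comparison ranges were 81.5 to 193 and 95.1 to 324 CPM, below every member set, and the log2 ratios were 1.96 and 1.11. At day 19 it had 0.27 after thinning, 0.64 without set 3 and 2.01 without set 2. Rgs16, a regulator of G protein signalling, reached 427 to 937 CPM in members at day 13 and 528 to 822 CPM at day 19, with log2 ratios of 2.35 and 1.27, and 0.84 at day 19 after thinning. Of the 15 and 14 measured genes of the TCR feedback list, 1 on each day was 2-fold higher and 1 was 2-fold lower, with medians of -0.12 and 0.21. Socs3, an inhibitor of cytokine signalling, was the lower one at -1.35 and -1.88, below the comparison cells in 8 of 8 sets. With comparison cells that also lacked Tcf7, Gzmc and Gzmf, no measured gene of the list was 2-fold lower.

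Nrgn, Camk2n1 and Adam8 completed the 10 highest genes. Nrgn encodes neurogranin, a calmodulin-binding protein best known from neurons, Camk2n1 an inhibitor of the kinase CaMKII, and Adam8 a membrane metalloprotease. Their log2 ratios were 2.64 and 1.66 for Nrgn, 1.5 and 1.45 for Camk2n1, and 1.84 and 1.29 for Adam8, each higher in 8 of 8 sets. At day 19 Nrgn and Adam8 had 0.51 and 0.47 after thinning and 2.94 and 2.25 without set 2, Adam8 had 0.81 without set 3, and Camk2n1 had 0.90 against the stricter comparison cells. Nrgn varied most, from 13.8 CPM in set 2 to 164 CPM in set 4 of the day 13 members.

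Among inhibitory receptors other than Pdcd1 and Havcr2, 10 of 11 measured genes were above 0 at day 13 and 11 of 12 at day 19, with median log2 ratios of 0.44 and 0.69. Of these, 4 at day 13 and 3 at day 19 were at least 2-fold higher, as were 1.44 and 0.773% of all genes. Against the cells that also lacked Tcf7, Gzmc and Gzmf, 0 of the 10 with at least 100 UMIs were 2-fold higher on either day, with medians of 0.46 and 0.33. Cd244a, another inhibitory receptor, was not among those 10 at day 13. Its log2 ratios were 2.32 and 0.94, or 1.66 and 0.83 against those stricter cells, so it stayed over 2-fold at day 13. Tigit, a receptor for CD155, had log2 ratios of 1.16 and 0.69 and was higher in 7 of 8 sets. Klrc1, which encodes the NKG2A receptor, had 1.00 and 0.60 in 8 of 8 sets, and Ctla4 had 0.58 and 0.56 in 6 of 8. Of the exhaustion transcription factors, 12 of 15 and 10 of 12 were above 0, with medians of 0.48 and 0.59. Rbpj, the DNA-binding partner of Notch, had the highest of them at 1.58 (1.35 to 1.81) and 1.07 (0.81 to 1.32), or 1.11 and 0.65 against those stricter cells and 0.62 at day 19 after thinning, and Batf, at 0.30 and 0.88, was higher in 8 of 8 sets.

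On the low side were Lef1, a transcription factor that works beside TCF-1, and Klf2, a factor of resting T cells. Lef1 had log2 ratios of -1.87 (-2.57 to -1.25) and -2.21 (-3.26 to -1.31) and was lower in 7 of 8 sets. Klf2 was at 7.80 to 110.2 CPM in day 13 members against 401 to 645 CPM, and at 52.2 to 302 CPM in day 19 members against 164 to 309 CPM. Its sets were apart at day 13 and overlapped at day 19, where set 1 of the members was high at 302 CPM. Its log2 ratios were -2.75 and -1.46. Of the progenitor and memory list without Tcf7, 9 of 12 measured genes at day 13 and 4 of 9 at day 19 were at least 2-fold lower, as were 2.4 and 1.7% of all genes. The medians were -1.95 and -0.96, against 0.04 and 0.01 over all genes. The rule removed Tcf7-positive cells from one side only. With that made equal, Klf2 had -1.81 and -0.24 and Lef1 -0.63 and -0.78, so that Klf2 at day 19 and Lef1 on both days were under 2-fold. The list medians were then -0.40 and -0.33, with 2 of 7 and 1 of 5 measured genes 2-fold lower.

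Emb, Fam241a, Tespa1, Slfn5, Cxcl10 and Pdlim1 were also among the 10 lowest genes, and each was lower in 8 of 8 sets, against 4.05% of all genes. Emb encodes embigin, a membrane glycoprotein, and Tespa1 a protein of TCR signalling in thymocytes. Emb was at 121 CPM in members against 396 at day 13 and at 48.0 against 201 CPM at day 19, log2 ratios of -1.71 and -2.07. Slfn5, a Schlafen family gene, had -1.40 and -2.65, and Cxcl10, a chemokine induced by interferon, had -1.52 and -1.37. At day 19 thinning took Cxcl10 to -0.69 and Fam241a to -0.19, both under 2-fold. Without set 2 Cxcl10 had -0.83, Emb -2.73, Fam241a -2.74 and Tespa1 -3.78, and without set 3 Cxcl10 had -2.60. Cd69, the early activation and residency marker, was also lower in 8 of 8 sets, at -0.86 and -0.81.

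**Figure D2:**
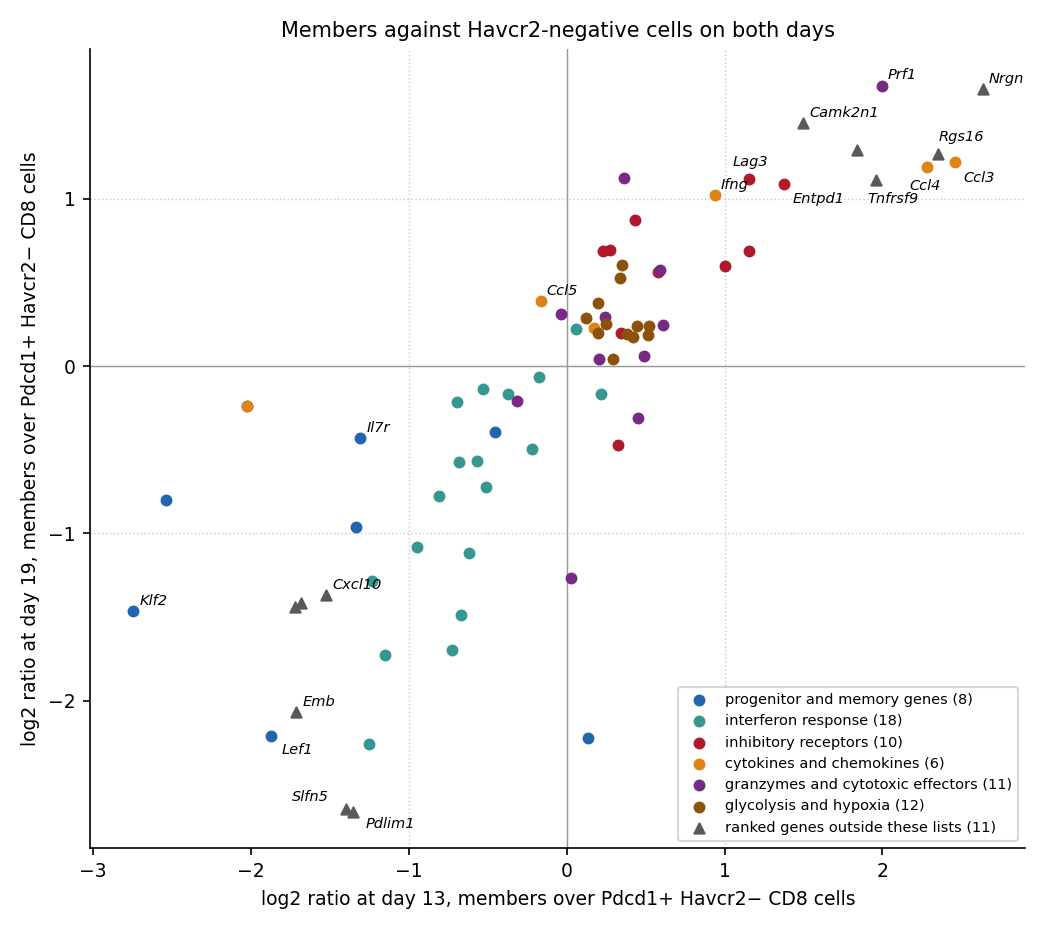
Each point is a gene, with its log2 ratio of members over Pdcd1-positive Havcr2-negative CD8 cells at day 13 on the x axis and at day 19 on the y axis, colored by gene list. Above 0 on both days lie 9 of 10 inhibitory receptors and 7 of 11 effector genes, among them Prf1 (1.99 and 1.67). Progenitor genes such as Lef1 (-1.87 and -2.21) lie at the lower left.

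Slfn5 and Cxcl10 belong to the genes that type I and II interferons induce, and the list of that response lay lower in members. Of its measured genes, 17 of 19 at day 13 and 17 of 18 at day 19 were below 0. Their medians were -0.62 and -0.65, against 0.04 and 0.01 over all genes. Of the 18 measured on both days, 8 were lower in 8 of 8 sets, as were 4.05% of all genes. Isg15, a ubiquitin-like protein, stood at 482, 1394, 1256 and 425 CPM in members and at 1058, 1963, 1509 and 1472 CPM in Havcr2-negative cells of sets 1 to 4 at day 13. At day 19 it stood at 48.3, 119.9, 294 and 100.3 CPM in members and at 122, 288, 1067 and 415 CPM in Havcr2-negative cells. Members were lower in every set, while the ranges overlapped between sets. The log2 ratio of Isg15 was -0.67 (-0.75 to -0.59) and -1.49 (-1.72 to -1.26), and that of Ifit3, an antiviral effector, -1.15 and -1.73. With the comparison cells that also lacked Tcf7, Gzmc and Gzmf the list medians were -0.75 and -0.61.

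Genes of glycolysis and hypoxia were above 0 without exception among those measured, 13 of 13 at day 13 and 12 of 12 at day 19, but none reached 2-fold. None of the 12 measured on both days was higher in 8 of 8 sets, against 3.75% of all genes, and with the stricter comparison cells 10 of 12 and 11 of 11 were above 0. Their medians were 0.35 and 0.24, and Gapdh, a glycolytic enzyme, had 0.44 (0.35 to 0.54) and 0.24 (0.13 to 0.35). Cell cycle genes other than Mki67 turned with the day, with a median of 0.57 over 10 genes at day 13 and -0.51 over 8 genes at day 19. The chemokine receptor Cxcr6, a marker of tissue residence, was higher in 8 of 8 sets at 1.01 and 0.82, or 0.33 and 0.25 against the stricter comparison cells.

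Antibody tags gave a readout of surface protein that the rule had not used. A tag is an antibody with a sequence label, counted here as CPM of the 138 tags, of which 137 were measured on both days. Tag differences were small: 1 of 138 tags (0.725%) passed 2-fold at day 13 and 1 of 137 (0.73%) at day 19. The isotype controls IgG1, IgG2a and IgG2b, which bind no T cell protein and show the background, had log2 ratios between -0.16 and 0.16.

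Tags of the exhaustion receptors stayed under 2-fold, while the RNA of Havcr2 and Pdcd1 had been set by the rule. CD366, which is TIM-3, was higher in members in 8 of 8 sets, at 3349 against 3241 CPM and 3480.2 against 3250.4 CPM, but its log2 ratios of 0.05 (-0.02 to 0.12) and 0.10 (-0.01 to 0.21) lay within the isotype range. CD279, which is PD-1, had 0.06 and 0.02 and CD223, which is LAG-3, was at 19012 against 18897 CPM at day 13 and 19264 against 19288 CPM at day 19. CD39, the product of Entpd1, had 0.13 (0.10 to 0.16) and 0.21 (0.16 to 0.26) in 8 of 8 sets, above the isotype range at day 19 only.

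The 5 tags ranked highest were CD86, MHC class II (IAIE), CD1d, CD54 and CD357. CD86, a ligand of CD28 and CTLA-4, was higher in 8 of 8 sets with log2 ratios of 0.35 (0.28 to 0.42) and 0.33 (0.23 to 0.43). The IAIE tag, at 0.76 and 0.32, was higher in 5 of 8 sets and peaked at 5748 CPM in set 2 at day 13 and 7451 CPM in set 4 at day 19. Both are molecules of antigen-presenting cells, as are the MHC class II genes given above, and the part of such cells in the tag values was not tested. CD54, an adhesion molecule, had 0.22 and 0.26 in 7 of 8 sets. CD357, the receptor GITR, had 0.80 and 0.17 in 6 of 8 sets, with 4956 against 1016 CPM in set 4 of day 13 and 1134 against 1288 CPM in set 2. CD1d had 0.27 and 0.26 in 4 of 8. Among the lowest tags were Gr1, CD5, CD170 and the IgG2a isotype control, of which CD5, a brake on TCR signalling, had -0.15 and -0.39 and was lower in 7 of 8 sets. The tags past 2-fold were IgD at day 13, with a log2 ratio of -2.86, and CD274 at day 19, with -1.46. Neither kept its direction, since IgD had 0.20 at day 19 and CD274 0.67 at day 13.

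TCR chains were used by the rule only for their presence. A clonotype was a pair of identical TRA and TRB CDR3 nucleotide sequences within a set, and it was called expanded with at least 3 CD8 cells. Among members with exactly 1 TRA and 1 TRB chain, 77 of 114 at day 13, 67.5% (58.1 to 76.0), and 55 of 78 at day 19, 70.5% (59.1 to 80.3), belonged to expanded clonotypes. The share was 61.5, 83.3, 50 and 63.2% in sets 1 to 4 at day 13 and 33.3, 73.3, 85.0 and 42.9% at day 19. In Havcr2-negative cells it was 15.4, 53.5, 29.9 and 20.7%, and 12.5, 40, 16.7 and 36.4%. Members were higher in each of the 8 sets, with overlap between the sets, and the lowest value, in set 1 of day 19, rests on 6 cells. Without set 2 of day 13, which held the most members, the day 13 share was 56.1%.

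Over all sets, expanded clonotypes held 39.4% of the Havcr2-negative cells of day 13 (34.8 to 44.1) and 32.1% of those of day 19 (24.9 to 39.9). Pdcd1-negative CD8 cells had 6.7 and 4.9%. The Gzmc or Gzmf-positive cells, given in detail below, had 76.6% at day 19 (64.3 to 86.2), an interval that overlapped that of the members. At least 2 TRA chains were found in 5 of 124 members at day 13 and 26 of 114 at day 19, and such cells were left out of the pairs.

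**Figure D3:**
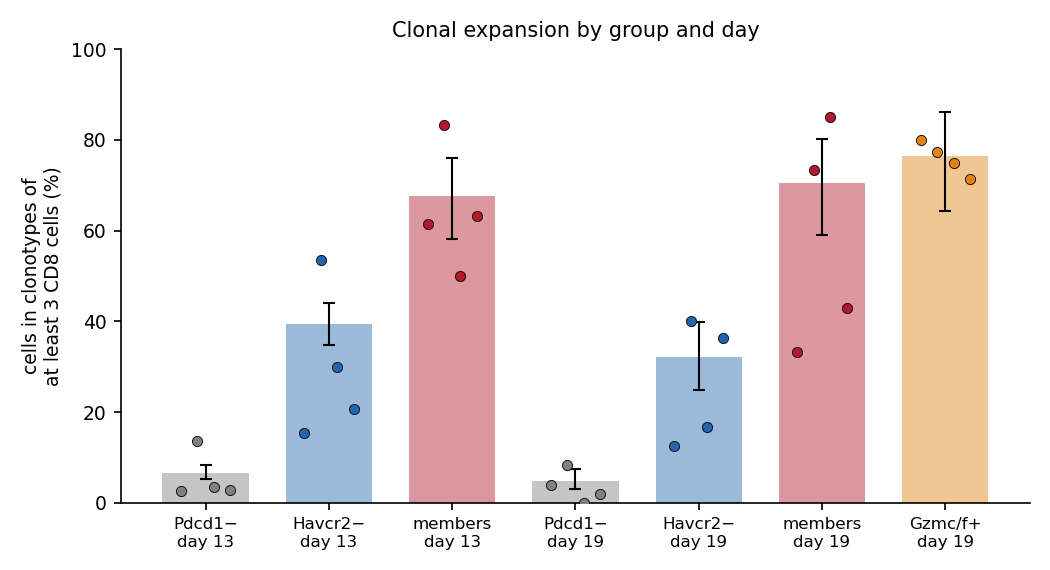
Bars give the percentage of cells with 1 TRA and 1 TRB chain whose clonotype held at least 3 CD8 cells, by group and day, with 95% exact binomial intervals and with points for the contig sets. Members reach 67.5% at day 13 and 70.5% at day 19, Havcr2-negative cells 39.4 and 32.1%.

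The clones of members also held cells in other states. Of the 77 members in expanded clonotypes at day 13, 74.0% shared theirs with a Havcr2-negative Pdcd1-positive cell, 24.7% with a Gzmc or Gzmf-positive terminal cell and 87.0% with an Mki67-positive CD8 cell. Of the 55 at day 19, these shares were 87.3, 80 and 94.5%. Expanded clonotypes have more cells to share with, and over all paired members the shares were 54.4, 16.7 and 63.2% at day 13 and 62.8, 57.7 and 67.9% at day 19. There were 9 Gzmc or Gzmf-positive cells in all at day 13 and 119 at day 19. Of all paired members, 25.4% at day 13 (17.7 to 34.4) and 62.8% at day 19 (51.1 to 73.5) had a clonotype whose sequences were also found in another set of the same day. The sets were therefore not separate in clones, and they are not used as replicates.

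The largest clones among members differed between the days in sequence, while one V gene pair came back. At day 13, early clone 1 (TRAV5-1, TRBV1) gave 10 members among its 31 CD8 cells and early clone 2 (TRAV16N, TRBV5) gave 8 of 24, both in set 2. Early clone 3 (TRAV7D-2 with TRAJ7, TRBV16 with TRBJ2-7) gave 7 of 32, all in set 4, and 22 of its cells carried Mki67. At day 19, late clone 1 (TRAV6D-5, TRBV26) gave 16 of 71 in set 2, along with 13 Gzmc or Gzmf-positive and 20 cycling cells. Late clone 2 gave 14 of 47 in set 3 and late clone 3 gave 6 of 27 in set 2, and both used the V and J segments of early clone 3. The CDR3 sequences of these related clones are shown because they join members of both days, 5′ to 3′ as in the deposited contigs, with capitals where any of them differ.
early clone 3 TRA: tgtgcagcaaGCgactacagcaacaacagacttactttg
late clone 2 TRA: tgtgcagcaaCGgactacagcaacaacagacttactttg
late clone 3 TRA: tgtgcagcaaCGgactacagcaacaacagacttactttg
early clone 3 TRB: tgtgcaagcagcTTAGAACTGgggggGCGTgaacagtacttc
late clone 2 TRB: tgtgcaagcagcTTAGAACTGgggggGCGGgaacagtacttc
late clone 3 TRB: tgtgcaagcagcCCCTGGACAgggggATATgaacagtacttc

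Early clone 3 and late clone 2, from different captures and animals of different days, differed in 2 of 39 TRA bases and 1 of 42 TRB bases. Late clones 2 and 3 had the same TRA sequence and differed in 13 TRB bases. The CDR3 of the clone with the most members on each day is given for comparison, and these share neither V gene nor sequence with the clones above.
early clone 1 TRA: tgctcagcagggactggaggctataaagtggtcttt
early clone 1 TRB: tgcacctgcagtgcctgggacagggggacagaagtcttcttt
late clone 1 TRA: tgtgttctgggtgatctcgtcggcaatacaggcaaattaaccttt
late clone 1 TRB: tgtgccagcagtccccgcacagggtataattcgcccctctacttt

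Over the members with 1 TRA chain, 117 at day 13 and 88 at day 19, TRAV7D-2 was carried by 9.40 and 26.1%, against 2.20 and 6.77% of Havcr2-negative cells. Every cell of a clone was counted here. Of the 11 TRAV7D-2 members at day 13, early clone 3 gave 7. Of the 23 at day 19, late clones 2 and 3 gave 14 and 6, so the shares largely restate these clones. TRBV16, used by the same clones, was carried by 15.7% of 121 and 20.2% of 104 members counted for TRB, against 6.68 and 8.88%. TRBV5 was carried by 16.5 and 34.6% against 6.50 and 18.7%.

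Between the days, members held less RNA of interferon response genes at day 19 and more of Fcer1g, Hilpda, Dusp14 and Sult2b1. Of 3387 genes with at least 100 UMIs over both days, 35 (1.03%) were at least 2-fold higher at day 19 and 118 (3.48%) at least 2-fold lower. Without the MHC class II cells these counts were 33 and 84, and after thinning 10 and 37. Without set 2 of day 19, 22 genes were higher, and without set 2 of day 13, 67 were lower. Sets of the 2 days did not overlap for 127 genes (3.75%) that were higher and 227 genes (6.7%) that were lower at day 19. The median log2 ratio over all genes was -0.10.

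All 18 measured interferon response genes were lower at day 19, 11 of them by at least 2-fold, as were 3.48% of all genes. For 10 of the 18 the day 19 sets lay below those of day 13 without overlap, as for 6.7% of all genes. The median log2 ratio of the list was -1.24, and -1.21 without the MHC class II cells. Isg15 was at 425 to 1394 CPM in the day 13 sets of members, as given above, and at 48.3 to 294 CPM in those of day 19, a log2 ratio of -2.76 (-2.99 to -2.54). Ifit1, which binds foreign RNA caps, stood at 165, 344, 321 and 105 CPM and then at 48.3, 32.4, 35 and 0 CPM. All day 19 sets lay below all day 13 sets. The log2 ratio of Ifit1 was -3.11 (-3.64 to -2.61), and after thinning it was seen in 41.9% of members at day 13 and 14.9% at day 19.

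Rsad2, the antiviral enzyme viperin, had -3.46, Cmpk2, a mitochondrial nucleotide kinase next to it in the genome, -3.02, and Slfn5 -3.28, all with sets apart. The same list in Havcr2-negative cells had 18 of 18 genes lower, 13 by at least 2-fold, and a median of -1.23, so the difference between the days was of like size in both groups. Day and capture cannot be told apart in it. The share of all genes that were 2-fold lower between the days was not counted for Havcr2-negative cells.

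**Figure D4:**
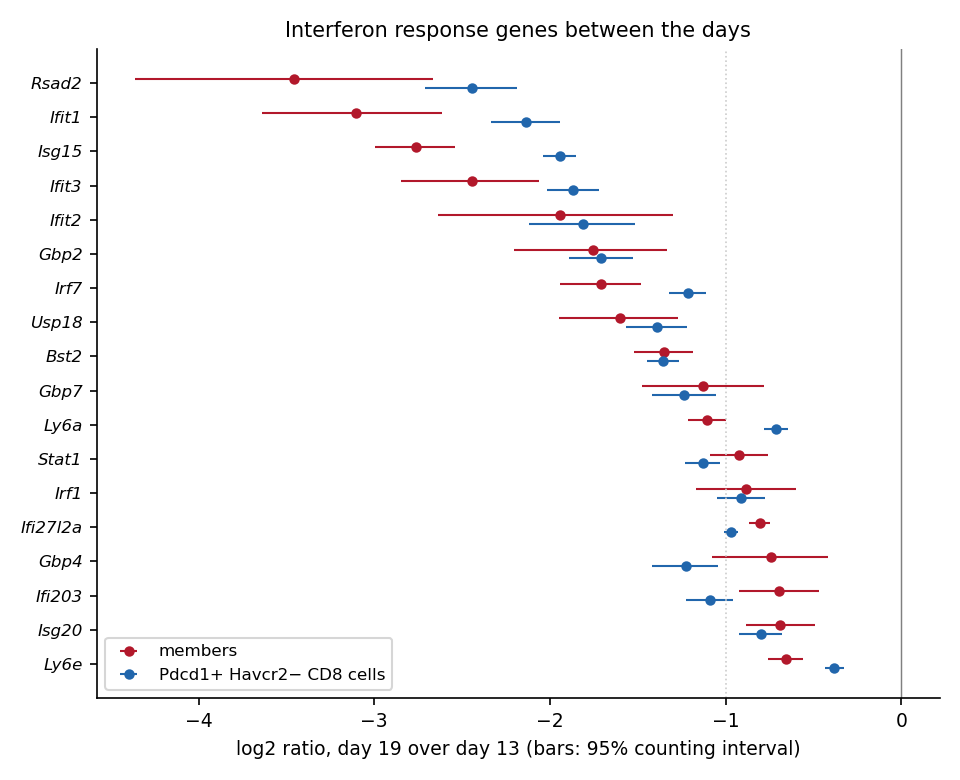
Points give the log2 ratio of day 19 over day 13 for interferon response genes, in members and in Pdcd1-positive Havcr2-negative CD8 cells, with bars for the 95% counting interval. All 18 measured genes lie below 0 in both groups, with medians of -1.24 and -1.23.

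Some other genes that were lower at day 19 depended on the few MHC class II cells of day 13. Cd83, Marcksl1, Ccr7 and Cxcl16 were among the 8 lowest, and each was found in at most 17 members of day 13. Without those cells Marcksl1 had a log2 ratio of -1.33 in place of -3.40, Ccr7 -1.17 in place of -3.01, and Cxcl16 0.09 in place of -2.96. Cd83, the lowest of all, moved less, to -3.07 from -3.65. Among other genes, Cxcr3, a chemokine receptor for entry into inflamed tissue, had -1.54, and the integrins Itgb7 and Itgb1 had -1.48 and -1.17, each with sets apart. The median of 7 cell cycle genes was -0.92 in members, against 0.24 in Havcr2-negative cells. Gzmb was at 2898 CPM at day 13 and 1596 CPM at day 19, a log2 ratio of -0.86, with overlapping sets.

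On the higher side, Fcer1g encodes the signalling chain shared by Fc receptors and natural killer receptors. It stood at 165, 201, 172 and 261 CPM at day 13 and at 423, 1076, 785 and 674 CPM at day 19. All day 19 sets were above all day 13 sets. Its log2 ratio was 2.20 (2.00 to 2.40), and the number of members with a UMI was 25 of 124 and 64 of 114.

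Dusp14, a phosphatase that acts on kinases below the TCR, had 2.64, Sult2b1, a sterol sulfotransferase, 2.24, and Hilpda, a lipid droplet protein induced by hypoxia, 1.86, with sets apart for each. Csf1, the growth factor of macrophages, had 2.66 (1.97 to 3.42), from 15.9 to 100.2 CPM, but set 4 of day 19 was at 0. Without set 2 of day 19 Csf1 had 1.47 and Sult2b1 1.63, and Dusp14 ranged from 1.99 to 3.99 without sets 2 and 4 of day 13. Klre1, a natural killer receptor, had 1.88, and Ifitm1, a membrane protein induced by interferon that is no part of the list above, 1.81, both with overlapping sets. Ifitm1 had 0.64 without set 2 of day 19. Xcl1, a chemokine that attracts cross-presenting dendritic cells, had 2.34 from only 13 cells at day 19, with 2804 CPM in set 1. It had 0.73 without that set and turned to -1.23 after thinning and to -1.22 in cells without any C1qa, Lyz2 or Csf1r.

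The exhaustion markers stayed under 2-fold between the days in members. The log2 ratio of day 19 over day 13 was 0.31 (0.16 to 0.46) for Lag3, 0.55 (0.23 to 0.87) for Tox and 0.25 (-0.08 to 0.59) for Entpd1, with overlapping sets. Cd244a, the receptor 2B4, was the only inhibitory receptor with at least 100 UMIs over both days that reached 2-fold, with 15.6 to 41.3 CPM at day 13 and 54.7 to 72.5 CPM at day 19, a log2 ratio of 1.12 and sets apart. With at least 2 Havcr2 UMIs required of members it was 0.36. Cd200r1, the receptor of CD200, had fewer UMIs and 1.08, or -0.36 after thinning. The heat shock genes Hspa1a and Dnajb1, at 1.78 and 1.15, also had sets apart, and such genes respond to handling of tissue as well.

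At day 19 the members could be set beside the 119 terminal cells that met every condition except that they held at least 1 UMI of Gzmc or Gzmf. Those cells were 24.2% of the Pdcd1-positive, Mki67-negative CD8 cells (20.5 to 28.2), beside 23.2% for members, whereas at day 13 they were 9 cells, 1.1% (0.5 to 2.1), too few for a comparison. They were also deeper, with a median of 11983 gene UMIs, and with every cell thinned to 5000 UMIs they were 59 of 489 cells, 12.1% (9.3 to 15.3), against 18.2% for members. Of 3475 genes, 20 (0.576%) were at least 2-fold higher in members and 18 (0.518%) at least 2-fold lower. Gzmc and Gzmf, on which the split was made, are among the 18. Without the MHC class II cells the counts were 22 and 19, and after thinning they were 5 and 10.

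Gzmc and Gzmf, which defined the split, were at 3224 and 7539.9 CPM in the positive cells. Gzmb, which the split did not use, stood at 508, 1477, 2662 and 419 CPM in members of sets 1 to 4 and at 2638, 4789, 5611 and 5457 CPM in the positive cells. Members were lower in 4 of 4 sets, as were 6.27% of all genes, and the ranges touched only where member set 3 met positive set 1. The log2 ratio of Gzmb was -1.60 (-1.67 to -1.52). Other granzymes of the same cluster were rare on both sides. Gzmd had 11 UMIs from 1 member and 267 from 6 positive cells, and Gzme 2 UMIs from 1 member and 102 from 4 positive cells. Gzmg had no UMI in members and 169 from 3 positive cells. With 3 counts set for the members it was 42.8-fold lower, a value that describes those 3 positive cells and bounds counting error only. These genes reached the UMI minimum through the positive cells, which were selected on genes of the same cluster.

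Of 7 measured natural killer receptor genes, 6 were below 0 and 1 was 2-fold lower in members, with a median of -0.21. Klrb1c, which encodes the natural killer receptor NK1.1, had a log2 ratio of -1.99 (-2.87 to -1.21), with a UMI in 8 of 114 members and 36 of 119 positive cells. Fcer1g was at 423 to 1076 CPM in members and 1412 to 2583 CPM in positive cells, with no overlap and a log2 ratio of -1.19 (-1.29 to -1.09). Mt1, a metallothionein, had -1.17 in 4 of 4 sets, and Ifitm1 had -1.29 in 3 of 4. Ccl1, a chemokine, had -3.03 from 2 members and 9 positive cells, and the choroid plexus transcript Ttr, also among the 8 lowest, came from 1 positive cell.

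Members held more RNA of Cd160, Ccl5 and Tox than the positive cells. Against Havcr2-negative cells, by contrast, Cd160 had log2 ratios of 0.33 and -0.47 and Ccl5 -0.17 and 0.39. Cd160, an inhibitory receptor of cytotoxic cells, stood at 193, 87.4, 84.1 and 72.9 CPM in members and 21.4, 25.9, 10.1 and 46.2 CPM in positive cells. The sets did not overlap, and the log2 ratio was 1.86 (1.32 to 2.42). Ccl5, a chemokine of effector and memory CD8 cells, stood at 6199, 5649, 5006 and 3889 CPM against 2125, 2069.96, 1537 and 798 CPM, again with no overlap and a log2 ratio of 1.51 (1.45 to 1.58). Tox stood at 193, 133, 238 and 200.3 CPM against 107, 68.7, 111 and 132 CPM, apart in all sets by a narrow margin, with a log2 ratio of 1.03 (0.70 to 1.36).

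Klf2 at 1.78, Ccl3 at 1.55, the serpin gene Serpina3f at 1.40, Batf at 1.25, the chaperone gene Hsph1 at 1.21 and the early response gene Egr1 at 1.15 were also higher in members in 4 of 4 sets, as were 11.9% of all genes. Of 21 named genes at 2-fold or more in this comparison, 12 kept it under every alternative tried. Ccl5 had 0.98 after thinning, Tox 0.92 and 0.90 without sets 2 and 3, and Ccl3 2.24 and 0.96 without the same sets. With at least 2 Havcr2 UMIs Serpina3f had 0.95 and Fcer1g -0.99. Without set 2 Klf2 had 3.33 and Klrb1c -3.17, and after thinning Klrb1c had -1.12. Cd74, H2-Eb1 and H2-Aa were among the 8 highest at 1.79, 1.79 and 1.39. The dendritic list they belong to summed to 1740 CPM in members (515 to 12360) and 803 CPM in positive cells (288 to 8692), with the highest values in member set 4 and positive set 1. Without the MHC class II cells H2-Eb1 and H2-Aa both had a log2 ratio of 0.08, whereas Cd74 had 2.16. Without set 4 all of them turned, to -0.22 for Cd74, -0.73 for H2-Eb1 and -1.05 for H2-Aa.

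**Figure D5:**
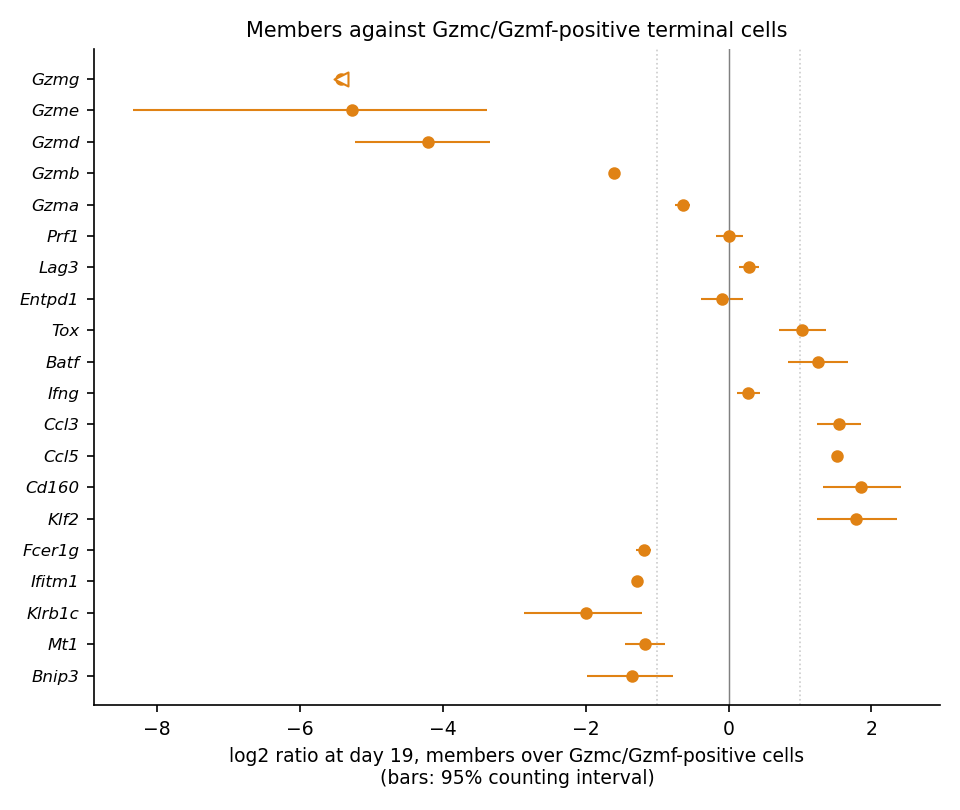
Points give the log2 ratio at day 19 of members over the Gzmc or Gzmf-positive terminal cells for named genes, with bars for the 95% counting interval and an open left triangle for Gzmg, whose members had no UMI. Cd160 (1.86) and Ccl5 (1.51) lie on the right and Gzmb (-1.60) on the left, with Lag3, Entpd1 and Prf1 near 0.

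Other exhaustion and effector genes stayed under 2-fold between members and positive cells. The log2 ratio was 0.29 (0.15 to 0.43) for Lag3, -0.09 (-0.39 to 0.20) for Entpd1, 0.01 (-0.18 to 0.20) for Prf1, which turned to -0.65 without set 3, and 0.28 (0.12 to 0.44) for Ifng. Of the inhibitory receptors 1 of 10 was 2-fold higher and of the exhaustion transcription factors 2 of 12, as were 0.576% of all genes, with medians of 0.28 and 0.23 against 0.06 over all genes. Of 14 heat shock and dissociation genes, 13 were above 0 in members with a median of 0.43, and 1 was 2-fold higher.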

How the data were processed

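Raw UMI counts for each gene, antibody tag and barcode are what the deposited matrices contain, and the deposited TCR tables hold assembled contigs with their calls and UMI counts. The submitters' processing notes list bcl2fastq 2.20, Cell Ranger 4.0.0, STAR 2.7.5c, Seurat, R 4.1.2 and mm10, without settings. The matrices were unfiltered, with 144565182 gene UMIs at day 13 and 81224453 at day 19, and 8879 and 4667 barcodes reached 5000.

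Counts were summed per cell group, set and day and divided by the summed gene UMIs (tags: summed antibody UMIs) to give CPM. Ratios carry exact 95% intervals for 2 Poisson counts and shares carry exact Clopper-Pearson intervals, both for counting error only. Where a group's sum was 0, 3 counts took its place. Ratio and interval code was tested on simulated data. Called means at least 2-fold with at least 100 UMIs over the 2 groups together, so a gene may pass through 1 group alone. Expanded clonotypes had at least 3 CD8 cells of a set. Thinning drew 5000 UMIs per cell.

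Named were the marker and rule genes, up to 4 genes per list by size of log2 ratio, the 10 highest and lowest genes by the smaller of both days' ratios against Havcr2-negative cells, the 8 highest and lowest elsewhere, 5 tags per side and 3 clonotypes per day. Ranks excluded TCR, immunoglobulin, ribosomal, mitochondrial, Gm, Rik, Xist and Y-linked genes. Other genes of the lists were named after their values were seen. Members and lists were chosen with earlier results of these data known. Of the list genes, 3 (Mx1, Trgc1, Trgc2) were not matched by symbol. Some list genes and tags are counted but their values are not reported here. Doublets were not called, and the alternative with 1 multiplexing tag at 80% or more and at most 1 TRB contig stands in for that. Python 3.11.15, numpy 2.4.6, pandas 2.3.3 and scipy 1.17.1 were used.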

Additional observations from a re-analysis of the deposited data

How the results depend on the processing

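No paired test was made, because the labels give no replicate numbers and tie no multiplexing tag to an animal or pool. The sets of a day also shared a capture and clones. No result comes from a test, and differences within sets are given as a description. Of 148 alternative values for the 10 main results, 98 stayed within 1.5 times or the interval of the value reported and 50 did not. Leaving out 1 set at a time gave shares of members of 15.1 to 16.1% at day 13 and 20.9 to 24.6% at day 19, and shares in expanded clonotypes of 56.1 to 75.0% (without set 2 of day 13 the lowest) and 65.5 to 73.6%. It gave 6 (without set 3 of day 19) to 28 (without set 2 of day 19) genes higher on both days than in Havcr2-negative cells and 15 to 39 lower, with 16, 15 and 18 without sets 2, 3 and 4 of day 19. Between the days it gave 22 (without set 2 of day 19) to 36 higher and 67 (without set 2 of day 13) to 135 lower genes, and against Gzmc or Gzmf-positive cells 16 to 24 higher and 12 to 19 lower. Shares of members were 12.8 and 18.2% in cells thinned to 5000 UMIs, 7.66 and 12.4% with at least 2 Havcr2 UMIs, and 10.1 and 12.2% with no Mki67 or myeloid condition in the denominator. With expansion from 2 cells on, 80.7 and 82.1% of members were in expanded clonotypes.

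In the order higher and lower on both days, higher and lower at day 19, and higher and lower than Gzmc or Gzmf-positive cells, thinned cells gave 5, 13, 10, 37, 5 and 10 genes. A minimum of 20 UMIs gave 52, 100, 241, 454, 322 and 122, no minimum beyond 1 UMI gave 134, 168, 663, 922, 890 and 405, and a fold of 1.5 gave 74, 101, 127, 347, 158 and 52. At least 2 Havcr2 UMIs gave 27 genes higher on both days, 16 higher at day 19 and 56 lower. Members with C1qa, Lyz2 and Csf1r at 0 gave 10 genes higher on both days, and comparison cells with no Mki67 or myeloid condition 29 higher and 192 lower. With 1 multiplexing tag and at most 1 TRB contig, 18 genes were lower on both days and 32 higher than in Gzmc or Gzmf-positive cells. Comparison cells without Tcf7, Gzmc and Gzmf, chosen after seeing the data like the exclusion of MHC class II cells, left 3 higher and 9 lower. The number of genes that could be measured under each alternative is not given. The counts under the alternatives therefore carry no share of all genes, and smaller ones need not mean smaller ratios. Among named genes at 2-fold or more, the sign turned in 11 values. Against Gzmc or Gzmf-positive cells these were Cd74, H2-Eb1 and H2-Aa without set 4 of day 19, with ranges over the sets left out of -0.22 to 4.59, -0.73 to 4.69 and -1.05 to 4.45 (the highest without set 1 of day 19), the same genes with C1qa, Lyz2 and Csf1r at 0 (-0.47, -0.93 and -1.20), and Cd74 in thinned cells (-0.00813). Between the days they were Xcl1 (-1.23) and Cd200r1 (-0.36) in thinned cells, Xcl1 with C1qa, Lyz2 and Csf1r at 0 (-1.22), and Cxcl16 without MHC class II cells (0.0945). Of 29 named ratios under 2-fold, 10 changed sign under some alternative: Gzmb and Ccl5 against Havcr2-negative cells on both days, and Entpd1, Ifng and Prf1 both between the days and against Gzmc or Gzmf-positive cells. The cause was not tested. Depth limits genes under 100 UMIs and the sets of day 19 with 7 and 9 members.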
